A study of Mus musculus with 96 samples.

Results

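Male F4 liver contributed 6061 of the 43494 differentially methylated regions (DMRs) of the series, each a 100-bp window of the mouse genome in which methyl-CpG binding domain sequencing (MBD-seq) read coverage differed between animals ancestrally exposed to tributyltin (TBT) and controls. The 6061 DMRs were every entry that the deposited table gives for F4 liver, or 0.0229% of the 26474739 windows of that size without an undetermined base in build GRCm38. They had been selected at an edgeR p below 0.001 on the same 8 liver libraries that are described here, so the contrast between the groups is what chose them and was not tested again. The other DMRs of the series came from mesenchymal stem cells (MSCs) of F3 and F4 females and males.

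The livers came from C57BL/6J males of the F4 generation at 33 weeks of age. In both groups only the F0 females had been dosed, through drinking water with carboxymethyl cellulose, in the week before mating and through pregnancy and lactation, with either 50 nM TBT or the vehicle, 0.1% DMSO. F4 animals of both groups had been given a diet richer in fat from week 19 to week 25 and a standard diet before and after. Each group held 4 mice for MBD-seq (DMSO1 to DMSO4 and TBT1 to TBT4) and 4 livers for RNA-seq, and the labels do not say whether equal numbers in the 2 assays are the same animals.

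In mammalian DNA, methylation sits mostly on cytosines that are followed by guanine (CpG). MBD-seq captures sonicated fragments with a methyl-CpG binding domain protein, so read coverage follows both the methylation of a stretch and the number of CpGs in it, and a fragment also covers neighbouring windows that hold none. TBT is an organotin that activates the nuclear receptors PPAR gamma and RXR. A DMR is called hypermethylated here where the mean coverage was higher in TBT and hypomethylated where it was lower. Whole liver is a mixture of cell types, and a change in how common a cell type is cannot be told apart from a change of methylation within its cells.

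The sequences of 10 DMRs follow, read from the plus strand of GRCm38 in RefSeq's genome with CpGs in capitals. The first 3 are CpG-bearing hypermethylated DMRs that carried some of the largest differences, in the open interval near the non-coding gene Gm39818, in a coding exon of Nr2f6 and upstream of Zzz3.
Gm39818 neighbourhood, chr11:48452101-48452200: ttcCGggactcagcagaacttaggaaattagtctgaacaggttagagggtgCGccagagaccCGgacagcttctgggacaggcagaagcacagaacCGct
Nr2f6 coding exon, chr8:71376101-71376200: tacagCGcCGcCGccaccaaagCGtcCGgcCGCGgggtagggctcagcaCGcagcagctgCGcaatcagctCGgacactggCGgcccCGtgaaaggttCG
Zzz3 upstream, chr3:152394601-152394700: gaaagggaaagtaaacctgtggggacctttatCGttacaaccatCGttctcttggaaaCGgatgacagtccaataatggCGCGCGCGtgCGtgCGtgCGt

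The next 2 are hypermethylated DMRs with almost no reads or none in DMSO, in introns of Ube3a and Pced1b, and the first of them has no CpG.
Ube3a intron, chr7:59234801-59234900: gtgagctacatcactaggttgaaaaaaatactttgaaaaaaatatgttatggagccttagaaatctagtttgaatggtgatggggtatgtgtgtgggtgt
Pced1b intron, chr15:97286401-97286500: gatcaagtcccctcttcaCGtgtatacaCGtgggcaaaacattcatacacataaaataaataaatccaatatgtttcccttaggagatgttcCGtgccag

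The next 2 show hypomethylated DMRs at the distal end of chromosome Y, where the longest stretch of 1 direction lay, and the 2 after them show the reverse emptiness, with reads in DMSO and 1 read or none in TBT.
Erdr1 intron, chrY:90790901-90791000: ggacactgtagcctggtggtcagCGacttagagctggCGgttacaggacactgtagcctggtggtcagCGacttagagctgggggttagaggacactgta
Gm52481 neighbourhood, chrY:90737701-90737800: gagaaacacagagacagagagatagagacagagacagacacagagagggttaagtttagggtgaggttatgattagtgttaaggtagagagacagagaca
Zfp384 intron, chr6:125033801-125033900: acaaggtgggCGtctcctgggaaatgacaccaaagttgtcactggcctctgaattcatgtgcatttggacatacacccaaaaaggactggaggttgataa
Sbk1 intron, chr7:126286401-126286500: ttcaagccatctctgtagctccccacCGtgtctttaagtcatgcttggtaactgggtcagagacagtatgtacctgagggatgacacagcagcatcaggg

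The last lies in an intron of Tet1, which oxidises methylated cytosine, and is shown because it is a hypermethylated DMR within the methylation machinery itself.
Tet1 intron, chr10:62873601-62873700: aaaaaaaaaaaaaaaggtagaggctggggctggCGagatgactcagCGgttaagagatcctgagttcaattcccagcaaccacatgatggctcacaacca

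Among the 6061 DMRs, 2720 (44.9%) were hypermethylated and 3341 (55.1%) were hypomethylated. Every library of 1 group lay above every library of the other in 5060 DMRs (83.5%). This held for 1978 hypermethylated DMRs (72.7%) and for 3082 hypomethylated DMRs (92.2%). Because the DMRs were selected for this contrast, these shares describe the selection and nothing is read from them.

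Coverage is given as RPKM, in which reads are scaled by the length of the window and the depth of the library. In a 100-bp window 1 read was worth 0.518, 0.637, 0.732 and 0.542 RPKM in DMSO1 to DMSO4 and 0.530, 0.462, 0.424 and 1.06 RPKM in TBT1 to TBT4. These steps correspond to 13.7 to 19.3 M (mega) mapped reads in DMSO, 18.9 to 23.6 M mapped reads in TBT1 to TBT3 and 9.43 M mapped reads in TBT4, the shallowest library. The median DMR held between 0 reads (TBT4) and 5 reads per library. A window without a read allows up to 3 reads, or 1.27 to 2.20 RPKM in the 7 deeper libraries and 3.18 RPKM in TBT4. Floors and intervals given here cover counting error only.

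The 2 directions differed in where the empty windows were. In hypermethylated DMRs, 48.2%, 55.4%, 67.6% and 52.8% had no read in DMSO1 to DMSO4, against 0.147%, 0.294%, 0% and 13.2% in TBT1 to TBT4. In hypomethylated DMRs, no window was empty in any DMSO library, and 21.4%, 20.0%, 8.05% and 87.8% were empty in TBT1 to TBT4. TBT4 was thus the emptiest TBT library in both directions, and the emptiest of the 8 libraries in hypomethylated DMRs. Whether its lower depth accounts for this was not tested.

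All 4 DMSO libraries were empty in 851 hypermethylated DMRs (31.3% of them), whose mean in TBT ran from 1.23 to 4.67 RPKM with a median of 1.51. Of these, 584 (68.6%) had no CpG within their 100 bases. All 4 TBT libraries were empty in 61 hypomethylated DMRs, with DMSO means of 1.85 to 3.19 RPKM and a median of 2.15, and 30 of the 61 (49.2%) had no CpG. Leaving out TBT3 raised the 61 to 276, leaving out TBT2 raised it to 111, and leaving out TBT1 raised it to 95. In 1721 hypomethylated DMRs (51.5%) TBT4 was the only TBT library without a read. Reads were present in all 8 libraries in 955 DMRs (15.8%), of which 563 were hypermethylated and 392 hypomethylated.

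**Figure D1:**
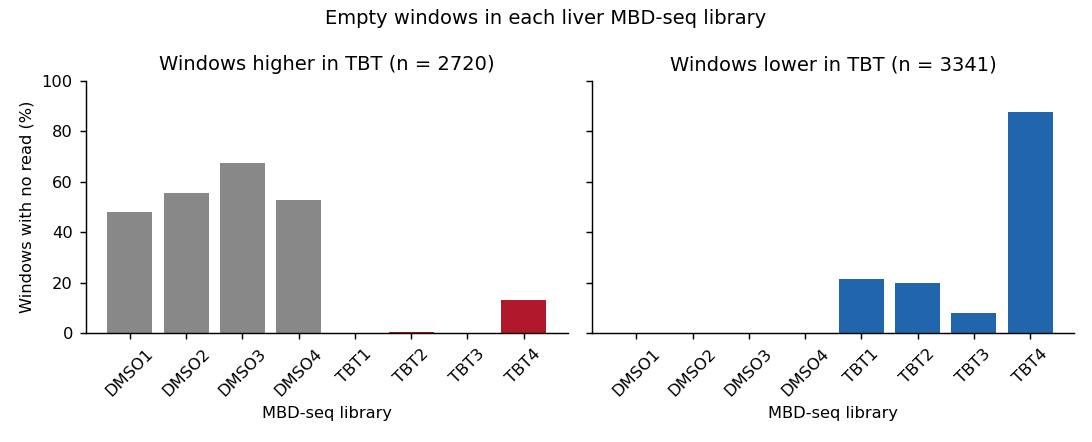
Share of DMRs without a read (percent) in each of the 8 liver libraries, with hypermethylated and hypomethylated DMRs in separate panels. In hypermethylated DMRs the DMSO libraries lie between 48.2% and 67.6%, and in hypomethylated DMRs TBT4 stands at 87.8% where TBT1 to TBT3 lie between 8.05% and 21.4%.

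The 5 DMRs that were empty in DMSO and highest in TBT held 18 to 25 TBT reads. In the Pced1b intron, TBT1 to TBT4 measured 3.71, 5.54, 1.70 and 1.06 RPKM, which is 24 reads together. Against the 3 reads that 0 reads over the 4 DMSO libraries allow, the pooled rate was at least 7.30-fold higher in TBT. A DMR 43 bp upstream of the pseudogene Gm7902 (chr5:133842701-133842800) measured 4.77, 1.38, 0.85 and 11.67 RPKM in TBT, at least 7.60-fold higher on the same floor. That bound leans on TBT4: the TBT mean was 4.67 RPKM with it and 2.33 RPKM without it, where no bound was computed. In the adjacent pair in an intron of the non-coding gene Gm26843 (chr8:93583301-93583400 and the next window), each DMR measured 1.06, 2.31, 0.85 and 9.55 RPKM, and their 100 bases occur 1129 and 562 times in the genome. The last of the 5, near Gm9121, was empty in TBT4 too.

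The mirror image was a DMR in an intron of Sbk1, which encodes a protein kinase. Its coverage was 1.04, 3.18, 3.66 and 4.88 RPKM in DMSO1 to DMSO4 and 0 in every TBT library. The 21 DMSO reads made the rate at least 7.67-fold higher in DMSO against a floor of 3 reads over the TBT group. DMRs in introns of Sipa1l3 and Unc5d, near Lingo2 and near Gm20933 on chromosome Y had 19 or 20 DMSO reads and none in TBT.

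Where the lower group had a few reads, 19 of the 20 largest ratios, 10 in each direction, rested on 1 read in that group, and the DMR near Tex13c1 on X rested on 3. The Zfp384 intron, in a gene for a zinc finger transcription factor, measured 3.11, 4.46, 2.93 and 4.34 RPKM in DMSO and 0, 0, 0.42 and 0 in TBT. With 25 reads against 1, the pooled rate was 27.4-fold higher in DMSO (95% exact interval 4.48 to 1125). The Hibadh intron (chr6:52631201-52631300; Hibadh acts in valine breakdown) held 24 DMSO reads and 1 TBT read, and the Klf7 intron (chr1:64040901-64041000; Klf7 is a Kruppel-like transcription factor) 21 and 1. In the other direction, the DMR with the highest ratio of group means (chr3:156262401-156262500, between genes) had 1 DMSO read and 24 TBT reads, a 21.9-fold higher pooled rate in TBT with an interval from 3.57 to 901. Its 100 bases occur 29 times in the genome. The Ube3a intron measured 0, 0, 0 and 0.54 RPKM in DMSO and 2.12, 1.85, 2.97 and 6.36 RPKM in TBT. The windows were chosen for this contrast, so the intervals state only how loosely so few reads fix a ratio.

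Across hypermethylated DMRs the median of the DMSO mean was 0.29 RPKM and that of the TBT mean 2.34 RPKM. The median difference (TBT minus DMSO) was 2.03 RPKM, with the middle 50% from 1.63 to 2.85 RPKM. In hypomethylated DMRs the medians were 3.67 RPKM in DMSO and 0.725 RPKM in TBT. Their median difference was -2.93 RPKM, with the middle 50% from -3.43 to -2.60 RPKM. Among DMRs with reads in both groups the median ratio was 5.26 in the 1869 hypermethylated and 5.08 in the 3280 hypomethylated DMRs. Ratios under 2 were found in 6 and 136 DMRs, respectively.

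Differences of at least 5 RPKM were found in 242 hypermethylated and 96 hypomethylated DMRs. TBT4 set this count: without it, 2 of the hypermethylated and 156 of the hypomethylated DMRs reached 5 RPKM in the same direction. A difference of at least 10 RPKM was reached by 55 hypermethylated DMRs with TBT4 and by 0 without it, and by 44 hypomethylated DMRs with it and 90 without it. Leaving out DMSO1 raised the count of hypomethylated DMRs past 5 RPKM to 178. The medians moved less, to 2.29 and -2.72 RPKM without TBT4.

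The largest difference was in a DMR with 4 CpGs between genes on chromosome 11 (chr11:48452101-48452200), whose nearest gene is Gm39818 at 67777 bp. It measured 5.18, 7.00, 8.06 and 9.21 RPKM in DMSO and 12.18, 12.00, 6.36 and 83.79 RPKM in TBT. TBT1 and TBT2 lay above all DMSO libraries, TBT3 lay among them and TBT4 lay far above, so the groups overlapped. The difference was 21.2 RPKM with TBT4 and 2.82 RPKM without it.

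High TBT4 values beside moderate values in the other libraries recurred among the largest positive differences, both within genes and between them. In the coding exon of Nr2f6, an orphan nuclear receptor, DMSO measured 4.66, 5.73, 4.39 and 6.50 RPKM and TBT 10.59, 8.77, 5.09 and 73.18 RPKM. Coding exons of Jag2 (a Notch ligand; TBT4 62.6 RPKM), Ing1 (a reader of histone methylation; 65.8 RPKM), Hivep3 (a zinc finger protein; 65.8 RPKM) and Fam160a1 (65.8 RPKM) also held DMRs among the 10 with the largest positive difference. In these 10 the other 7 libraries stayed between 2.07 and 14.30 RPKM, and each had overlapping groups. They also include an exon of the pseudogene Gm12151 and the start of a longer stretch on chromosome 18 (chr18:30793601-30793700; TBT4 64.7 RPKM).

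In hypermethylated DMRs TBT4 covered a wider range over CpG number than the other libraries. In those with no CpG (1253 DMRs), 1 CpG (824), 2 (301), 3 to 4 (252), 5 to 9 (85) and 10 or more (5), its mean was 1.88, 3.08, 7.17, 12.3, 24.9 and 34.6 RPKM. TBT1 went from 2.34 to 6.35 RPKM over the same bins, and DMSO4 from 0.276 to 3.79 RPKM. The mean difference went from 1.99 to 10.2 RPKM with TBT4 and from 2.11 to 2.96 RPKM without it. The last bin has 5 DMRs, and the one before it gave 7.79 and 2.95 RPKM. High values in TBT4 helped to select these DMRs. In hypomethylated DMRs of the same bins TBT4 averaged 0.310, 0.678, 1.83, 6.93, 6.30 and 0 RPKM, so it did not increase throughout, and the last bin there has 11 DMRs.

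**Figure D2:**
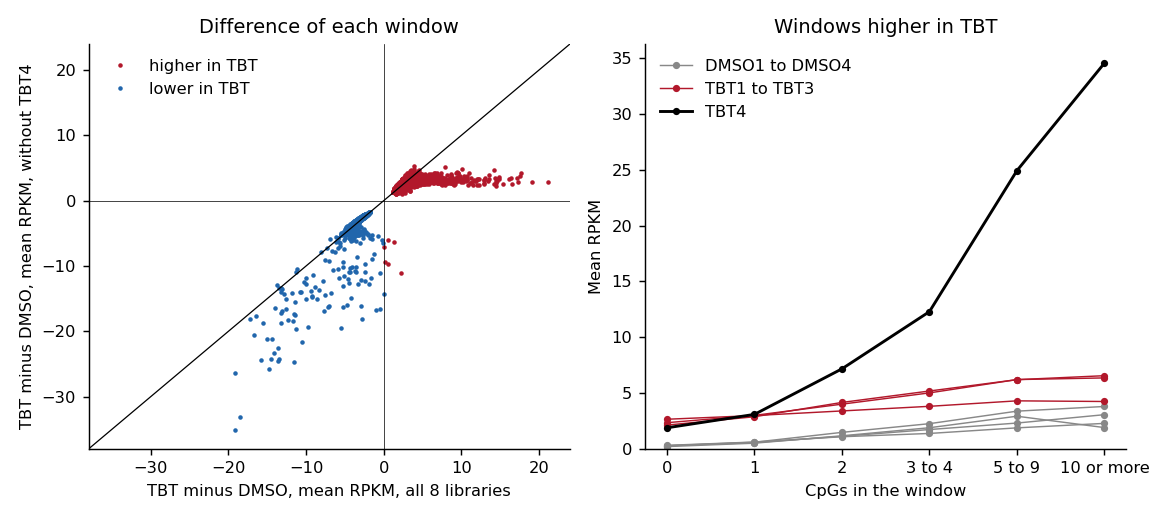
Left, difference in mean RPKM (TBT minus DMSO) of each DMR with all 8 libraries against the difference without TBT4. Right, mean RPKM of each library in hypermethylated DMRs by number of CpGs; TBT4 climbs from 1.88 to 34.6 RPKM where TBT1 climbs from 2.34 to 6.35 RPKM.

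TBT1 to TBT3 were separate from all DMSO libraries in 2541 hypermethylated DMRs (93.4%) and 3232 hypomethylated DMRs (96.7%). Among the 2541, TBT4 was also above DMSO in 1978 and was not in 563, being empty in 358 of those. Among the 3232, TBT4 was also below DMSO in 3082, and it was empty in 2830 of them. In the other 150, TBT4 reached or passed the DMSO libraries, lying above all of them in 86. In these 150 DMRs the means were 13.2, 18.4, 20.1 and 17.6 RPKM in DMSO1 to DMSO4, 6.35, 6.37 and 6.39 RPKM in TBT1 to TBT3, and 26.4 RPKM in TBT4. Of the 150, 80 lay at the distal ends of chromosomes X and Y.

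The direction depended on TBT4 in 6 hypermethylated DMRs, singled out after their values were seen. They include DMRs in an intron of Sp100 (chr1:85651901-85652000), in an exon of Gm13696 (chr2:83973801-83973900), in Mid1 on X and in a pair of windows near LOC108168645 on Y. At the Sp100 window DMSO measured 7.76, 11.46, 18.31 and 15.72 RPKM, TBT1 to TBT3 measured 6.35, 7.85 and 4.24 RPKM and TBT4 measured 35.0 RPKM. Its difference was 0.0475 RPKM with TBT4 and -7.17 RPKM without it.

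DMRs were found on all 19 autosomes, X and Y, from 81 on Y to 466 on chromosome 2. Per sequenced megabase the autosomes carried 2.19 (chromosome 6) to 2.85 (chromosome 11) DMRs, X carried 0.911 and Y 0.919. Males have 1 copy of X and of Y, and coverage per chromosome copy was not computed. Hypermethylated DMRs made up 37.0% of those on chromosome 11 and 56.7% of those on chromosome 18. Chromosomes 3 (55.5%), 9 (53.0%) and X (55.0%) were also above 50%, and the remaining autosomes lay between 37.0% and 47.5%. On Y 13 of 81 DMRs (16.0%) were hypermethylated, and 28.4% had groups that did not overlap.

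**Figure D3:**
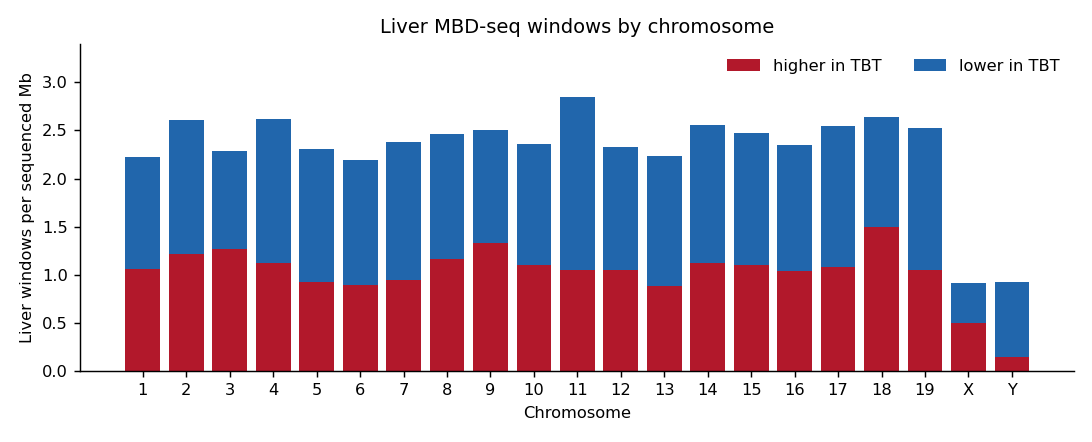
DMRs per sequenced megabase on each chromosome, split into hypermethylated and hypomethylated. Autosomes lie between 2.19 and 2.85 per megabase in total, and X and Y lie at 0.911 and 0.919.

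The 6061 DMRs formed 5194 blocks of directly adjacent DMRs of 1 direction. Single windows made up 4481 blocks (86.3%), and 605 blocks had 2 windows, 82 had 3, 17 had 4, 6 had 5, and 1 each had 7, 9 and 10. The longest hypermethylated block had 4 windows and the longest hypomethylated block 10. In the MSC samples the longest blocks had 4 to 6 windows. Of 868 pairs of adjacent DMRs, 867 shared their direction. Adjacent windows can share captured fragments. Over all 6040 pairs of successive DMRs on a chromosome, 61.9% shared their direction, against 62.8% to 64.0% in the 4 MSC samples. These pairs include the 868 adjacent ones, and their median gap was 240000 bp. A share without the adjacent pairs, or for directions placed at random, was not computed.

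The hypermethylated block with the largest summed difference among those of 4 windows lay in an intron of Gm42040 (chr8:107782501-107782900). Its mean was 0.52, 1.43, 0.73 and 0.948 RPKM in DMSO and 3.44, 4.04, 5.40 and 4.24 RPKM in TBT, and all 4 windows separated the groups. Another block (chr3:134278601-134279000), 16438 bp from Cxxc4, a gene for a CXXC zinc finger protein, measured 0.78, 0, 0 and 0 RPKM in DMSO and 1.99, 2.19, 2.97 and 1.06 RPKM in TBT. Both blocks had every TBT library above every DMSO library. The blocks at chr4:57143901-57144300 and chr2:175852501-175852900 averaged 3.98 and 1.64 RPKM in TBT, and the 100 bases of each window of the latter occur elsewhere in the genome. The fifth block, of 3 windows (chr18:30793601-30793900), had a TBT4 mean of 47.0 RPKM where the other 7 libraries lay between 2.12 and 8.46 RPKM.

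The hypomethylated blocks of 10, 9 and 7 windows and 4 of the 6 blocks of 5 windows were at the distal ends of X and Y, and 2 blocks of 5 lay elsewhere. The block of 10 (chrY:90739501-90740500), 2229 bp from Gm52481, averaged 23.2, 28.3, 28.0 and 25.9 RPKM in DMSO and 11.1, 9.14, 11.1 and 25.3 RPKM in TBT. The block of 9 in Mid1 (chrX:169979301-169980200) averaged 22.8, 36.9, 30.5 and 27.5 RPKM in DMSO and 10.8, 10.8, 12.0 and 34.5 RPKM in TBT. In both, TBT1 to TBT3 lay below all DMSO libraries and TBT4 lay among them. The block of 5 at chrX:169974901-169975400 differed in this, with 13.4, 16.7, 17.0 and 11.8 RPKM in DMSO and 3.39, 3.88, 5.17 and 2.54 RPKM in TBT, so that TBT4 was the lowest.

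A run is a series of successive DMRs on a chromosome that share a direction, whatever lies between them. There were 2324 runs, of which 990 were single DMRs and 56 had 10 or more. The longest had 67 hypomethylated DMRs on Y (chrY:65862001-90839200), spanning 24977200 bp with 46 adjacent pairs, and 64 of them lay at the distal end. Its groups did not overlap in 12 of the 67. Its mean was 22.5 ± 4.14 RPKM in DMSO (SD, n = 4), 7.03, 6.51 and 9.10 RPKM in TBT1 to TBT3 and 34.6 RPKM in TBT4. The run depended on single libraries. The longest run had 33 DMRs without DMSO2 or without DMSO3 and 23 without TBT1, TBT2 or TBT3. Leaving out TBT4 did not shorten it, as every hypomethylated DMR kept its direction. The longest run had 20 DMRs when the distal ends of X and Y were set aside. The longest runs in the MSC samples had 23 to 29 DMRs.

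The longest hypermethylated runs had 20 DMRs. One, on X (chrX:105272601-140817300), spanned 35544700 bp, measured 0.13, 0.064, 0 and 0.135 RPKM in DMSO and 1.91, 1.71, 2.03 and 1.11 RPKM in TBT, and separated the groups in 17 of 20 DMRs. The other, on chromosome 18 (chr18:30793601-35269000), touched genes such as Wdr33, Kdm3b and Sil1 and averaged 1.44 ± 0.61 RPKM in DMSO and 6.46 ± 4.67 RPKM in TBT (SD, n = 4). TBT4 averaged 13.4 RPKM in this run, and without it the TBT mean was 4.15 RPKM and the difference 2.70 in place of 5.02 RPKM. A run of 15 on chromosome 7 (chr7:58836001-62640300) held the pair of Ube3a DMRs, with 0.47 ± 0.27 RPKM in DMSO and 3.09 ± 0.44 RPKM in TBT (SD, n = 4). Away from X and Y the longest hypomethylated runs had 19 DMRs. On chromosome 5 (chr5:3066601-9550100, touching Cdk14, Adam22 and Dbf4) the mean was 3.59 ± 0.37 RPKM in DMSO and 0.608 ± 0.34 RPKM in TBT (SD, n = 4). On chromosome 4 (chr4:136367001-139069800, touching Alpl, Ece1 and Cda) it was 3.37 ± 0.45 and 0.508 ± 0.34 RPKM, and TBT4 had no read in any of its 19 DMRs.

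**Figure D4:**
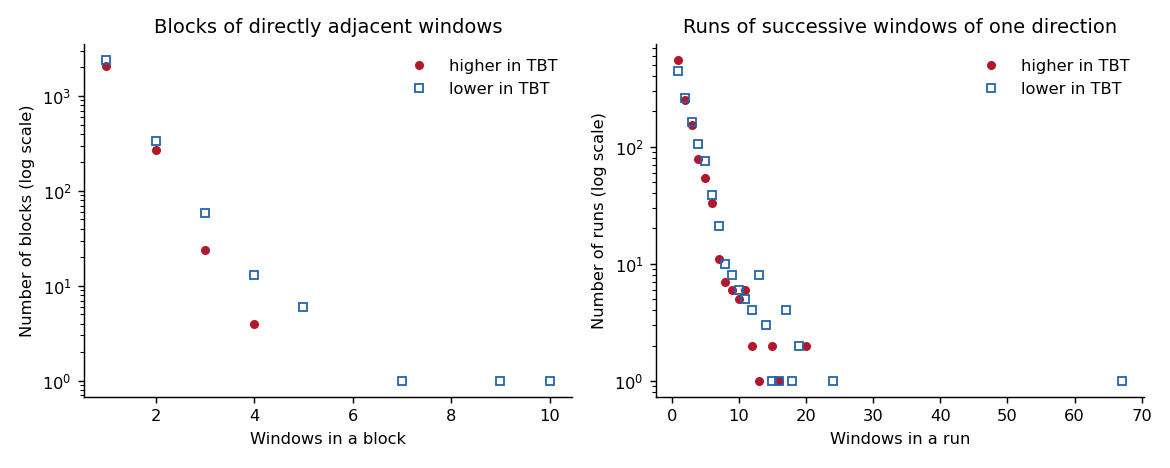
Number of blocks of adjacent DMRs (left) and of runs of 1 direction (right) by length, on a logarithmic vertical axis, for hypermethylated and hypomethylated DMRs. The hypomethylated tail reaches a block of 10 and a run of 67, and the hypermethylated one a block of 4 and runs of 20.

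The distal ends of X and Y, taken from 20000 bp before the first gene that RefSeq places on both chromosomes, hold the region over which X and Y pair in male meiosis. Mid1, which encodes a ubiquitin ligase bound to microtubules and spans the border of that region in this strain, and Erdr1, named as an erythroid differentiation regulator, lie there. The X end (chrX:169974901-170014200) held 43 of the 149 DMRs of X, 42 of them hypomethylated. Outside it, 81 of 106 DMRs on X were hypermethylated. The Y end (chrY:90737701-90844500) held 66 of 81 DMRs of Y, 64 of them hypomethylated, and outside it 11 of 15 were hypermethylated. The exact 100 bases of 19 DMRs at the X end and 23 at the Y end occur on both chromosomes, and whether the reads there could be assigned to 1 of them was not tested.

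Coverage at the X end averaged 16.6, 21.9, 21.6 and 18.2 RPKM in DMSO1 to DMSO4, 7.82, 7.46 and 7.54 RPKM in TBT1 to TBT3 and 24.4 RPKM in TBT4. At the Y end the means were 17.5, 24.7, 27.7 and 22.5 RPKM in DMSO, 7.29, 6.70 and 9.38 RPKM in TBT1 to TBT3 and 36.5 RPKM in TBT4. At both ends TBT1 to TBT3 lay below every DMSO library and TBT4 above every one. The groups were separate in 16 of the 43 DMRs on X and 9 of the 66 on Y. Without TBT4 they were separate in 43 and 65. Each MSC sample had 0 to 2 DMRs at each end.

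Single DMRs there carried the largest negative differences. In the Erdr1 intron DMSO measured 35.20, 51.57, 65.18 and 41.74 RPKM and TBT 11.12, 9.23, 19.50 and 77.43 RPKM. The DMR near Gm52481 (chrY:90737701-90737800), which has no CpG, measured 22.78, 31.83, 22.70 and 20.06 RPKM in DMSO and 4.77, 4.15, 11.02 and 11.67 RPKM in TBT. TBT4 was the highest library in the former and lay with the other TBT libraries, below all DMSO libraries, in the latter. The most negative difference, -19.1 RPKM, was at chrX:169978501-169978600. This DMR met an exon where Mid1 and G530011O06Rik overlap, 317 bp inside the start of G530011O06Rik. Without TBT4 the difference there was -26.3 RPKM, and the Erdr1 intron was more negative at -35.1 RPKM. The 10 hypomethylated start-site DMRs with the largest differences were all at G530011O06Rik.

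**Figure D5:**
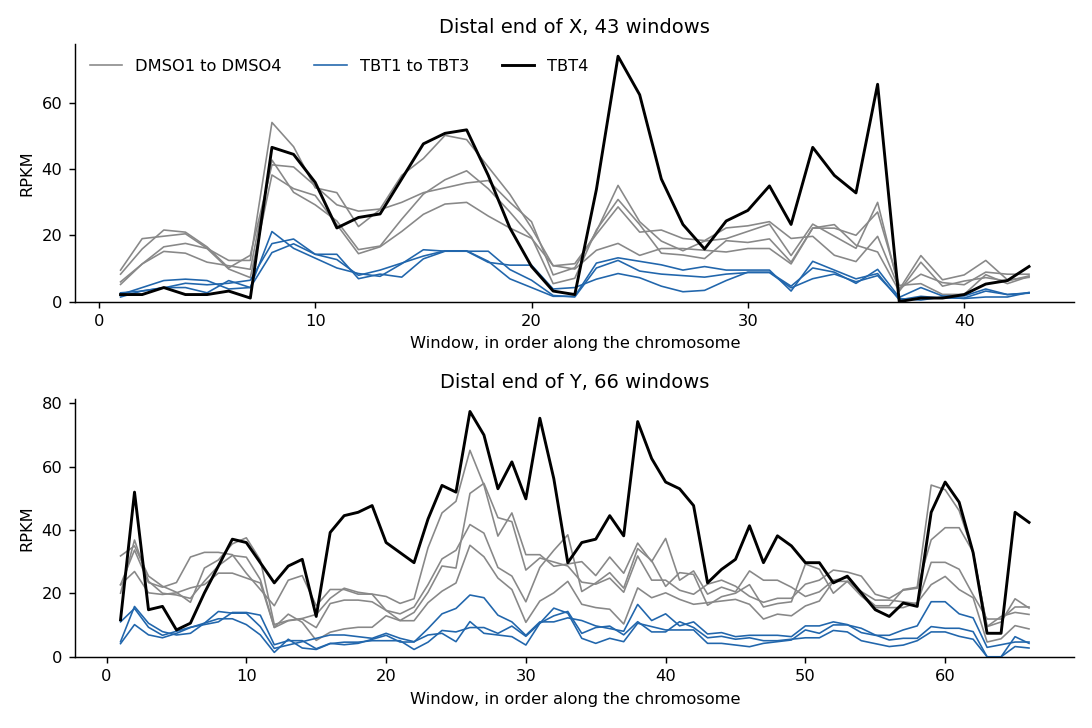
RPKM of each library in the DMRs at the distal ends of X (43 DMRs) and Y (66 DMRs), in chromosome order and not to genomic scale. TBT1 to TBT3 run below the DMSO libraries, and TBT4 lies above all DMSO libraries in 18 DMRs on X and 44 on Y.

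One autosomal locus ranked with them. It lay in coding exons where the genes Gm38510 and C130026I21Rik overlap on chromosome 1. The DMR at chr1:85246901-85247000 measured 23.29, 29.28, 31.49 and 37.40 RPKM in DMSO and 13.24, 13.39, 10.17 and 15.91 RPKM in TBT. Its groups did not overlap. The next window measured 26.92, 33.10, 38.09 and 42.28 RPKM in DMSO and 16.42, 16.16, 11.02 and 29.70 RPKM in TBT, where TBT4 overlapped DMSO. Both belong to a run of 11 hypomethylated DMRs.

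By place in RefSeq genes, 2834 DMRs were intronic, 199 in coding exons, 280 in other exons and 2748 between genes. Genes held 51.0% of hypermethylated and 57.6% of hypomethylated DMRs, against 47.0% of all genome windows. A start site, from 1500 bp upstream to 500 bp downstream, was met by 101 hypermethylated DMRs (3.71%) and 167 hypomethylated DMRs (5.00%), against 3.71% of genome windows. DMRs averaged 1.11 CpGs, against 0.826 in genome windows. No CpG was present in 46.1% of hypermethylated and 31.8% of hypomethylated DMRs, against 52.0%. GC content was 42.0% and 46.6%, against 41.7%, and 38.5% and 23.0% of bases were repeat-masked, against 36.4%.

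Among start-site DMRs, the largest hypermethylated differences were at Mir6941 within Jag2, the pseudogenes Gm3375, Gm9416 and Gm10698, the non-coding gene 4921531P14Rik and Zzz3, which encodes a subunit of a histone acetyltransferase complex. These differences rested largely on TBT4: without it the difference at Mir6941 was 4.27 in place of 17.6 RPKM, at Gm3375 2.40 in place of 12.1 RPKM and at Gm9416 2.42 in place of 10.9 RPKM. Gm3375 and Gm9416 were then below the start-site DMRs within Theg (3.91 RPKM) and at Gm8957 (3.75 RPKM). So were 4921531P14Rik (2.66 RPKM), Gm10698 (3.00 RPKM) and the windows upstream of Zzz3 (3.73 and 3.32 RPKM). Of the loci listed above as largest, Mir6941 alone stayed above both. The DMR 773 bp upstream of Zzz3 measured 1.04, 2.55, 0.73 and 4.34 RPKM in DMSO and 7.41, 6.46, 3.81 and 33.94 RPKM in TBT. TBT3 lay below DMSO4, so the groups overlapped. The adjacent DMR, 673 bp upstream, measured 0.52, 1.27, 0.73 and 2.71 RPKM in DMSO and 5.83, 5.08, 2.97 and 27.58 RPKM in TBT, without overlap. Cav3, which encodes the muscle form of caveolin, had a start-site DMR with 3.62, 5.09, 4.39 and 4.88 RPKM in DMSO and 9.53, 7.85, 5.09 and 26.52 RPKM in TBT. The groups met at 5.09 RPKM, and the difference was 7.75 RPKM with TBT4 and 3.00 RPKM without it.

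DMRs in a gene or within 5000 bp of its start were found for 6.26% of all RefSeq genes and for 9.82% of protein-coding genes, with median lengths of 5996 and 17219 bp. Of 20 genes of the DNA methylation machinery, with a median length of 39264.5 bp, 2 held DMRs, near the 9.82% of protein-coding genes. The Tet1 intron was hypermethylated, with 0.52, 1.27, 0 and 0.54 RPKM in DMSO and 2.12, 2.31, 3.39 and 3.18 RPKM in TBT. Tet3, which oxidises methylated cytosine as Tet1 does, held a pair of hypomethylated intronic DMRs. The first (chr6:83392501-83392600) measured 4.14, 5.73, 5.86 and 5.96 RPKM in DMSO and 3.71, 1.38, 2.12 and 0 RPKM in TBT, and in the other (chr6:83401701-83401800) the groups overlapped.

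Of 34 genes of liver lipid metabolism with PPAR and RXR receptors, 3 held a DMR, also near the 9.82% of protein-coding genes. Each was hypomethylated without overlap, as were 92.2% of all hypomethylated DMRs. Of these, an intron of Acaca (chr11:84284701-84284800), whose enzyme opens fatty acid synthesis, measured 2.59, 4.46, 4.39 and 4.34 RPKM in DMSO and 0.53, 1.85, 0.85 and 0 RPKM in TBT. An exon of Plin2 (chr4:86631501-86631600), a lipid droplet coat protein, measured 2.59, 3.18, 4.39 and 5.42 RPKM in DMSO and 0.53, 0.46, 1.27 and 0 RPKM in TBT.

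Of 36 imprinted genes, which can be expressed from 1 parental allele only, 35 were in the annotation. Of these, 6 held 8 DMRs in or near them, 4 in each direction. Kcnq1 and Kcnq1ot1 are both counted, through the same pair of DMRs. Any DMR was held by 9.82% of protein-coding genes and 6.26% of all genes, and the list includes non-coding genes. The median length of the imprinted genes was 38261 bp, against 17219 bp for protein-coding genes, and the share was not compared at equal length. Hypermethylated were the Ube3a pair (Ube3a encodes a ubiquitin ligase), an exon of Gnas, the gene of a G protein subunit (chr2:174321401-174321500; 0, 1.91, 1.46 and 0.54 RPKM in DMSO and 5.30, 2.31, 4.24 and 7.42 RPKM in TBT), and an intron of the signalling adaptor Grb10 (chr11:11997401-11997500; 0.13 and 2.25 RPKM on average). Hypomethylated were a DMR at -3173 bp from the start of Grb10, a pair where Kcnq1 and its antisense transcript Kcnq1ot1 overlap, and an exon of Impact. All 8 had groups that did not overlap, as had 83.5% of all DMRs. Grb10 thus had DMRs of both directions.

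RNA-seq of F4 male livers gave a readout that had no part in choosing the DMRs. Values are depth-scaled counts (CPM) as the authors normalised them, with 13.0 to 15.2 M reads in DMSO and 16.9 to 24.1 M reads in TBT. The 7 hepatocyte markers were above 0 in all 8 libraries and summed to 59777 to 68122 CPM in DMSO and 61108 to 64181 CPM in TBT. Kupffer cell markers summed to 162 to 338 CPM in DMSO and 128 to 235 CPM in TBT, and adipocyte markers to 0.475 to 2.16 and 0.272 to 0.742 CPM. Stellate cell markers summed to 265 to 325 CPM in DMSO and 248 to 341 CPM in TBT, and bile duct markers to 7.99 to 10.1 and 7.33 to 12.0 CPM. The ranges of the groups overlapped for each of these cell types. In whole tissue, fewer cells of a type and less RNA per cell cannot be told apart.

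No gene passed a Benjamini-Hochberg adjusted p of 0.05 in limma on log2(CPM + 0.5) over 17875 genes, 0%, and 591 (3.31%) had an unadjusted p under 0.05, 363 higher in TBT (2.03%) and 228 lower (1.28%). Leaving out TBT1 moved the 591 to 1353, leaving out TBT2 moved it to 392, and without TBT4 the split was 203 higher and 199 lower. With all 5 tissues in 1 limma fit, 171 genes (0.957%) had an adjusted p under 0.05 in liver and 1769 an unadjusted one, and of the genes overlapping a DMR 13 (0.782%) had an adjusted one. Over all genes 377 (2.11%) had groups that did not overlap, and the median log2 fold change was 0.01. RefSeq placed a DMR at the start site of 229 genes, of which 63 were tested. None of these passed the adjusted threshold in limma and 2 (3.17%) had an unadjusted p under 0.05, near the 3.31% of all genes. Their median log2 fold change was -0.02, and it was 0.009 without a filter and 0.004 without the TBT1 library.

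Genes that overlap a DMR numbered 2467, of which 1663 were tested. With limma 0 passed the adjusted threshold and 53 (3.19%) had an unadjusted p under 0.05, 41 higher in TBT and 12 lower, against 3.31% of all genes tested, with 363 higher and 228 lower. Leaving out the TBT1 library of RNA moved the 53 to 158 (9.70%, against 7.69% of all genes), and leaving out TBT2 moved it to 35 (2.13%, against 2.23%). Without TBT4 the split was 23 higher and 17 lower, and with all 5 tissues in 1 fit the 53 became 153 (9.20%, against 9.90%). Groups did not overlap in 37 (2.22%), against 2.11% of all genes. The median log2 fold change of the 1663 was 0.04, and 62.1% had a positive one, against 52.2% of all genes tested. These shares were not compared at equal gene length. The 609 genes with hypermethylated DMRs only had a median of 0.04 and the 903 with hypomethylated DMRs only had 0.03. Without the TBT4 RNA library the median of all genes with a DMR was 0.02, and the share above 0 was 56.6%, against 52.8% of all genes tested.

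Both start-site genes under an unadjusted p of 0.05 had hypomethylated DMRs. G530011O06Rik, at the X end, measured 0.317, 0.470, 0.222 and 0.633 CPM in DMSO and 0.939, 0.653, 0.624 and 1.10 CPM in TBT, a log2 fold change of 0.55 (SE 0.18, limma, adjusted p = 1.00). DMSO4 lay just above TBT3, so the groups overlapped. Reads were counted without regard to strand and for every gene they overlap, so part of its count can come from Mid1, which it overlaps. 4930592I03Rik had a log2 fold change of 0.54 (SE 0.23, limma, adjusted p = 1.00).

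Erdr1, with hypomethylated DMRs across the Y end, measured 0.824, 0.548, 1.40 and 1.11 CPM in DMSO and 1.57, 2.12, 2.73 and 5.52 CPM in TBT. Every TBT library lay above every DMSO library, with a log2 fold change of 1.16 (SE 0.29, limma, adjusted p = 1.00). Reads of Erdr1 and its near-identical stretches on X and Y could be split or dropped by the counting, so its level is uncertain. Mid1 measured 1.40 to 2.35 CPM in DMSO and 1.37 to 2.21 CPM in TBT, with a log2 fold change of -0.03 (SE 0.20).

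The other genes with DMRs, the smallest unadjusted p and groups that did not overlap each had an adjusted p of 1.00 in limma. Ccdc57, with a hypomethylated DMR, measured 0.571, 0.705, 0.591 and 0.316 CPM in DMSO and 1.13, 1.52, 1.33 and 1.30 CPM in TBT. Osbpl3, of the oxysterol-binding family and also with a hypomethylated DMR, measured 7.23, 6.58, 6.73 and 6.01 CPM in DMSO and 8.08, 12.1, 12.2 and 11.6 CPM in TBT. Cacna1d, a calcium channel subunit, measured 27.4 to 31.3 CPM in DMSO and 33.0 to 41.4 CPM in TBT. Pde7a, a cyclic AMP phosphodiesterase, measured 7.02 to 9.32 and 10.1 to 10.5 CPM. Cacna1d and Pde7a held hypomethylated DMRs. Sytl2 and Myrip, both with hypermethylated DMRs, were also at higher levels in every TBT library, and Pls1 and Terb1, both with hypermethylated DMRs as well, were at lower levels. For Terb1 the groups came within less than 1 read of each other. DMSO1 measured 0.127 CPM and TBT1 0.125 CPM, where 1 read is 0.0634 and 0.0626 CPM.

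Of the 46 genes named for their DMRs, 37 were listed in the RNA table and 32 were tested, of which 2 had an unadjusted p under 0.05 and 0 an adjusted one in limma, where 3.31% of all genes had such an unadjusted p. The lists hold few genes, and the same 3.31% is the background of their counts. Among the methylation machinery 19 genes were tested, with a median log2 fold change of 0.08, and 1 gene, Gadd45b (-0.39), had an unadjusted p under 0.05. Tet1 (0.02, SE 0.18) and Tet3 (0.30, SE 0.16) did not. Among the 34 lipid genes the median was -0.05 and 3 had such a p: Scd1, a fatty acid desaturase (0.47), Cyp7a1, the rate-limiting enzyme of bile acid synthesis (-0.64), and Nr1h4, the bile acid receptor (-0.22). Acaca (0.08, SE 0.10) and Plin2 (0.16, SE 0.18) did not. Among 33 imprinted genes tested the median was 0.10, and Airn (0.53) and Rian (0.63), both non-coding, had such a p. None of the 6 genes with such a p in these lists held a DMR.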

How the data were processed

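MBD-seq and RNA-seq libraries of F4 male livers were used, 4 per group. The DMRs, the gene lists and the tests were chosen with earlier results of these data known. According to the submitters' processing notes the files were made with R 3.4, edgeR 3.20 and featureCounts on GRCm38 (mm10); the aligner is not given in the sources used here. For MBD-seq the authors deposited RPKM per library and 100-bp window for windows they had selected with MEDIPS and edgeR, together with columns headed counts that were not whole numbers and were treated as a normalized score. The authors also deposited log2 fold changes, p-values and group means of their own comparisons in both tables, which were not used. For RNA-seq the authors deposited CPM scaled by TMM, a depth-scaled signal per gene, in which the 8 liver columns fell on whole-read steps (tolerance 0.05 of a read); the depth of each library was read from these steps in both tables.

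Windows were compared with RefSeq genes and sequence of GRCm38.p6 (Python 3.11.15, numpy 2.4.6, pandas 2.3.3, pysam 0.24.0, matplotlib 3.10.9). Direction came from group mean RPKM. Groups were called not overlapping when every library of 1 group lay above every library of the other. Named DMRs were the 5 longest blocks (ties by the larger summed difference), the 10 largest differences, the 10 largest ratios and the 5 highest windows empty in the other group in each direction, the longest runs, the 10 largest start-site differences in each direction and windows in or near listed genes. No test of TBT against DMSO was run on the DMRs; single libraries were compared with the other 3 of their group by Dixon's criterion, as a description. A few named DMRs and genes are not reported here. RNA was tested with limma 3.58.1 (R 4.3.3) on log2(CPM + 0.5) with trend, for genes above 0 in at least 2 libraries of each group, with Benjamini-Hochberg adjustment over all genes; 10 genes with DMRs were named by the smallest unadjusted p among those with groups that did not overlap. Symbols were matched for 92.7% of 27179 gene IDs. The fit was tested on simulated data, and the outcome is not given here. Same-numbered RNA libraries deviated together with correlations of -0.03, 0.15, 0.10 and -0.09, so the numbers were not taken as pairs. Alternatives were other pseudocounts and filters, medians, a minimum RPKM of 0.5, gaps of up to 1000 bp, 5000 bp around start sites, all 5 tissues in 1 RNA fit, a replicate block and each library left out; setting aside the distal ends of X and Y was added after seeing the data.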

Additional observations from a re-analysis of the deposited data

Results flagged for a closer look

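In 136 groups of 4 libraries, 38 had a library that stood apart by Dixon's criterion, 25 of them TBT4 and 9 a DMSO library; chance gives about 1 in 20 of unselected groups, a rate that does not apply here. Most of these groups are DMRs named for their large differences or ratios, to which TBT4 contributed, many are neighbouring windows, and a single read beside 3 empty libraries meets the criterion by construction. TBT4 stood apart in its share of empty DMRs (54.3% over all, 13.2% of hypermethylated and 87.8% of hypomethylated DMRs), in its mean over hypermethylated DMRs (4.58 RPKM) and in its means at the distal ends of X (24.4 RPKM) and Y (36.5 RPKM). DMSO4 stood apart in its mean over hypermethylated DMRs (0.789 RPKM).

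TBT4 stood highest at single hypermethylated DMRs near Gm39818 (83.8 RPKM), in Nr2f6 (73.2 RPKM), Jag2 (62.6 RPKM) and Ing1 (65.8 RPKM), near Gm20952 on chromosome 18 (64.7 RPKM), in both Gm26843 windows (9.55 RPKM each), at Gm3375 (46.7 RPKM), 4921531P14Rik (38.2 RPKM) and Gm9416 (39.2 RPKM), in the pair of windows upstream of Zzz3 (33.9 and 27.6 RPKM) and at Gm10698 (32.9 RPKM, where DMSO4 also stood apart at 3.25 RPKM). It stood highest at hypomethylated DMRs in Erdr1 (77.4 RPKM) and in Mid1, at windows starting at 169978601 (44.6 RPKM), 169978701 (36.1 RPKM), 169979701 (50.9 RPKM), 169979801 (52.0 RPKM) and 169979901 (38.2 RPKM).

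In the following windows 1 library held the only read of its group. These were DMSO2 near Gm33311 (0.64 RPKM), DMSO1 in Dnah8 and in Grb10 (0.52 RPKM each), DMSO4 in both Ube3a windows (0.54 RPKM each), TBT3 in Zfp384 and Klf7 (0.42 RPKM each) and TBT2 in Hibadh (0.46 RPKM). DMSO1 was low within its group at Tet3 (4.14 RPKM) and Acaca (2.59 RPKM). In RNA, TBT1 was low within its group for Osbpl3 (8.08 CPM).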

How the results depend on the processing

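Over 253 alternatives to 21 results, 214 left the value within the replicate spread or within 1.5 times the count. Another 39 moved it and 0 were labelled as a reversed direction, although a start-site median close to 0 changed sign (below). Depth limits the smallest values, since 1 read is 0.424 to 1.06 RPKM. The DMRs higher by at least 5 RPKM (242) became 40 with group medians, 140 in DMRs whose groups did not overlap and 2 to 312 with a library left out. Those lower by at least 5 RPKM (96) became 154, 35 and 80 to 178, and 21 without the ends of X and Y. DMRs empty in every DMSO library (851) became 543 where groups did not overlap and 851 to 1060 with a library left out, and those empty in every TBT library (61) ran from 61 to 276. The longest block (10) became 5 where groups did not overlap, 5 without the ends of X and Y and 24 with gaps of up to 1000 bp. The longest run (67) became 19 where groups did not overlap, 20 without the ends, and 23 to 69 with a library left out. Start-site DMRs rose from 101 to 436 (hypermethylated) and from 167 to 699 (hypomethylated) within 5000 bp.

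In RNA the count of genes with a limma adjusted p under 0.05 (0) became 1 with a pseudocount of 0.1 and 171 (0.957%) with all 5 tissues in 1 fit, and 13 (0.782%) of the genes overlapping a DMR. Genes with an unadjusted p under 0.05 (591) became 354 at a mean CPM of at least 1, 1769 with all 5 tissues and 392 to 1353 with a library left out. For start-site genes the 2 became 6 without a filter, 0 at a mean CPM of at least 1, 5 with all 5 tissues, 14 within 5000 bp and 1 to 3 with a library left out. The median log2 fold change of start-site genes, -0.02, became 0.009 without a filter and 0.004 without TBT1. For genes overlapping a DMR the 53 became 153 with all 5 tissues and 35 to 158 with a library left out. The cause of these shifts was not tested. With the replicate block, which rests on numbers that only share a label, limma gave 0 adjusted and 598 unadjusted genes, 2 at start sites and 49 overlapping a DMR; numbers 2 and 3 correlated best with their own number and 1 and 4 did not. The edgeR test on reads computed back was left out: the liver values alone were whole reads, but reads were not recovered for the whole columns, which hold 5 tissues with different steps. The normalized score gives no RPKM size or empty window.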
